A study of Bos taurus with 15 samples.

Results

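The 36 integrin and laminin genes of the bovine endometrium are described here. They are all entries of the deposited gene table whose symbol is that of an integrin alpha or beta subunit (25 genes) or of a laminin alpha, beta or gamma chain (11 genes), of 32671 entries in all. Proteins that only bind integrins or resemble them were left out by name. All 36 passed the filter on low counts. Endometrium, the lining of the uterus, of 15 beef heifers was sampled on day 14 of pregnancy, with 5 heifers labelled High-fertile, 5 Sub-fertile and 5 Infertile. All 15 had their estrus synchronised with prostaglandin (PGF), GnRH, estradiol, progesterone and a vaginal progesterone insert (CIDR), and all received an embryo on day 7. Heifers not in estrus by day 0 had further GnRH and estrogen. That embryo had been produced in vivo and was put in the uterine horn on the side of the corpus luteum, the ovarian gland that makes progesterone. The uterus was flushed and the tissue taken from the same horn with biopsy forceps. The sources used here give neither the rule behind the classes nor the age of the heifers. Each library is labelled as 1 animal, so SDs describe differences between heifers, and replicate numbers only name them.

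Laminins are trimers of an alpha, a beta and a gamma chain that form the base layer of basement membranes, the sheets of matrix under epithelium and around blood vessels and smooth muscle cells. Integrins are cell surface receptors made of an alpha and a beta subunit, which hold laminin, collagen, fibronectin and other matrix proteins on the outside and the actin skeleton on the inside. In the uterus, integrins of the luminal epithelium and ligands such as osteopontin are known for their part in attachment of the conceptus, which in ruminants adheres to the epithelium with little invasion. Some integrins are found chiefly on blood cells, where they hold leukocytes to vessel walls or platelets to fibrinogen.

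Total counts per library were 40542008 to 56164970 in High-fertile, 38017136 to 62858724 in Sub-fertile and 40061511 to 51009815 in Infertile heifers, and the 36 genes took 0.396% to 0.492% of them. Levels are given as CPM (counts relative to the TMM-scaled library size) within a gene and as the deposited FPKM (scaled to gene length too) between genes. The epithelial marker EPCAM averaged 279.8 FPKM (at least 175 in every library) and the stromal marker DCN 1219 FPKM (at least 650). None of the 10 markers each of epithelium, smooth muscle, endothelium, stromal fibroblasts and leukocytes was at 0 in all libraries. That also held for 10 platelet and red cell markers, so it does not show which tissue was present. Smooth muscle markers summed to 645 to 26525 CPM, with Infertile replicate 1 highest, and stromal markers to 10171 to 40032 CPM, with Infertile replicate 2 highest. On 372 pseudogenes and ribosomal RNA genes, none of them an integrin or laminin gene, the libraries fell into sets of 8, 5 and 2. Of the 8, 4 are High-fertile and 2 each Sub-fertile and Infertile. The 5 are 3 Sub-fertile and 2 Infertile libraries with no High-fertile one, and High-fertile replicate 1 and Infertile replicate 2 formed the third set. The labels name no batch, so what separates the sets is not known, and class and set are partly confounded. In whole tissue, fewer cells of a type and less RNA per cell cannot be told apart.

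ITGB1, the beta subunit shared by the laminin, collagen and fibronectin receptors, was the most abundant of the 36 genes per length. Its deposited level was 214, 199.99, 198, 177 and 186 FPKM in High-fertile, 237, 230.0, 149.9, 193 and 245 in Sub-fertile and 222, 205, 211, 180.2 and 224 in Infertile heifers. Its range cleared that of every other member, and its log2 fold changes from High-fertile were 0.11 ± 0.144 (SE) in Sub-fertile and 0.10 ± 0.144 (SE) in Infertile heifers. Next came ITGA6 at a mean of 85.6 ± 25.2 FPKM (SD, n = 15), LAMB1 at 74.6 ± 18.2 FPKM, ITGB4 at 68.2 ± 26.7 FPKM, ITGB5 at 64.7 ± 21.9 FPKM, LAMC1 at 49.2 ± 8.56 FPKM and LAMA2 at 48.6 ± 16.6 FPKM. From ITGA6 down to LAMA1, every gene overlapped in range with the next in the order, so ranks within this stretch are not sharp. In all, 1 gene had a mean of at least 100 FPKM, 19 lay between 10 and 100, 14 between 1 and 10, and 2 below 1. The least abundant were LAMA1 at 0.679 FPKM and the leukocyte subunit ITGAD at 0.0440 FPKM. Between heifers ITGB1 varied by 13.4% (SD over mean) and LAMA1 by 190.0%, most of it from 1 heifer.

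**Figure D1:**
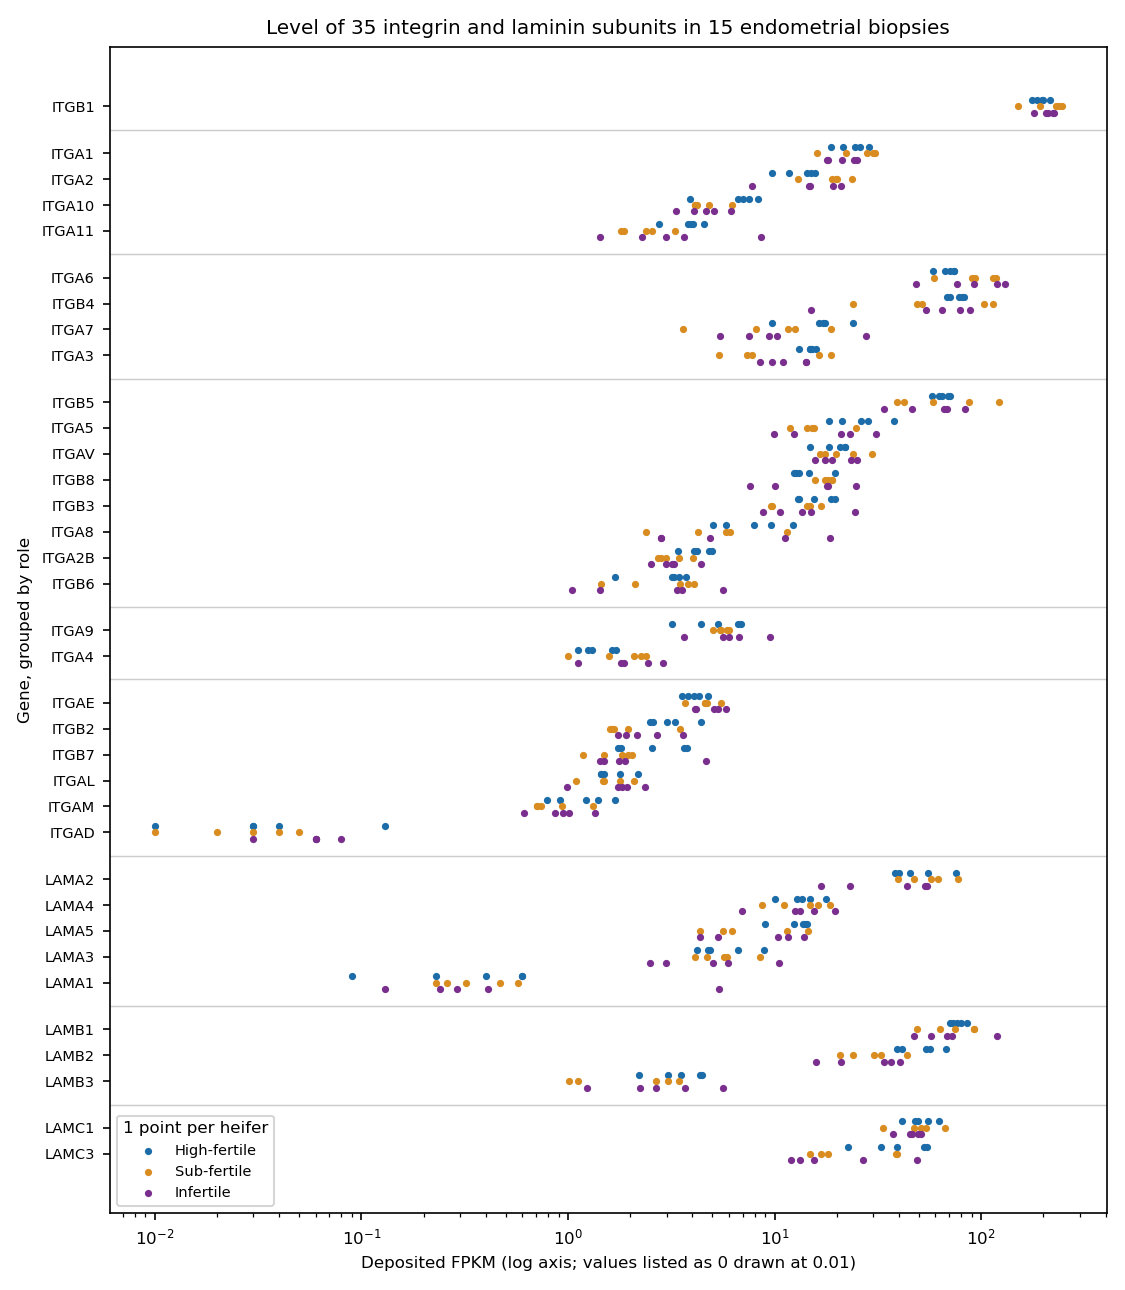
Deposited FPKM (horizontal log axis; values listed as 0 are drawn at 0.01) of 35 of the genes (vertical axis, grouped by role), with 1 point per heifer coloured by fertility class. ITGB1 stands to the right of all other genes, LAMA1 has 1 Infertile point far above the rest, and the 3 classes overlap in nearly every gene.

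No integrin or laminin gene differed between fertility classes after adjustment over the 19962 genes tested (edgeR quasi-likelihood test, Benjamini-Hochberg). The same test called 0 genes of any kind in each comparison (0% of genes). DESeq2 called 19 genes for Sub-fertile and 34 for Infertile against High-fertile, none of them among the 36, and limma-voom called 0 and 1, again none of the 36. Before adjustment, 6 of 36 members were at p under 0.05 in Sub-fertile against High-fertile heifers, beside 13.7% of all genes. Of these, 5 were lower and 1 higher, beside 7.14% and 6.58% of all genes. In Infertile against High-fertile heifers 3 of 36 were, beside 11% of all genes, all 3 of them lower, beside 3.89%, and in Infertile against Sub-fertile heifers none of 36, beside 2.63%. The any-difference test had 3 of 36, beside 8.42%. In direction, 23 of 36 members had a lower mean in Sub-fertile than in High-fertile heifers and their median was -0.08 on the log2 scale, beside 49% of all genes lower and a median of 0.01. In Infertile against High-fertile heifers 23 of 36 were also lower, with a median of -0.12, beside 46.5% and 0.04. Both comparisons share the High-fertile libraries. By family, 15 of 25 integrin and 8 of 11 laminin genes were lower in Sub-fertile heifers (medians of -0.17 and -0.06), and 14 and 9 in Infertile heifers (medians of -0.02 and -0.16). All 3 beta laminin chains were lower in both, with medians of -0.65 and -0.18, and 5 of 6 leukocyte integrin subunits in Sub-fertile and 3 of 6 in Infertile heifers, with medians of -0.55 and -0.08. Against Sub-fertile, 15 of 36 members had lower Infertile means and the median was 0.05, beside 45.3% of all genes. No member separated Sub-fertile from High-fertile libraries without overlap (5.07% of all genes did), 1 separated Infertile from High-fertile (2.22%, or 1.1% in the lower direction), and none Infertile from Sub-fertile (0.205%).

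**Figure D2:**
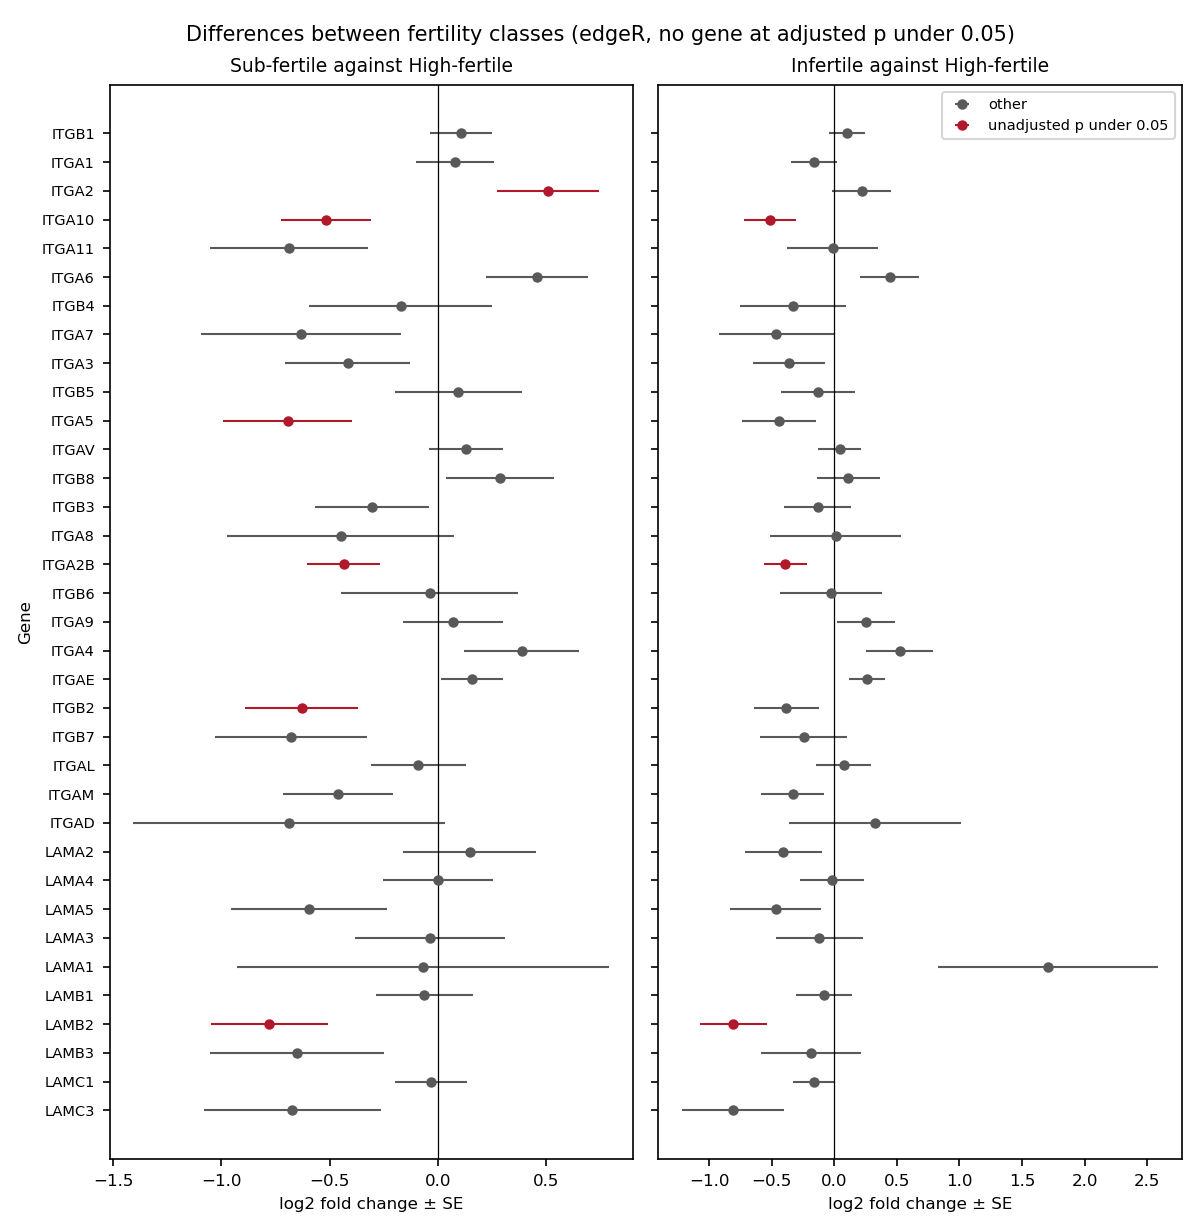
Log2 fold change (point) with its standard error (line) of 35 of the genes (vertical axis, by role) in Sub-fertile (left) and Infertile (right) against High-fertile heifers, from the edgeR fit over 15 libraries. Genes at an unadjusted p under 0.05 are red (LAMB2, ITGA10 and ITGA2B in both panels, ITGB2, ITGA5 and ITGA2 at left), and none passed the adjusted threshold.

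LAMB2, the laminin beta chain known from the basement membranes of smooth muscle, vessels and synapses, had the smallest p of the 36 genes in both comparisons with High-fertile heifers. LAMB2 was at 307, 234, 321, 225 and 382 CPM in High-fertile, 169.6, 115, 179.6, 255 and 136 in Sub-fertile and 221, 189, 114, 224 and 91.7 in Infertile heifers. All 5 Infertile libraries lay below all 5 High-fertile ones, though only just, with 223.5 CPM as the highest Infertile and 224.9 CPM as the lowest High-fertile value, and 4 of 5 Sub-fertile libraries lay below them too. The class means were 294 ± 65.2, 171 ± 53.6 and 168 ± 61.3 CPM (SD, n = 5 each). The log2 fold change was -0.78 ± 0.270 (SE; edgeR adjusted p = 0.360) in Sub-fertile and -0.81 ± 0.270 (SE; edgeR adjusted p = 0.435) in Infertile against High-fertile heifers. Leaving out any 1 of the 15 libraries kept the unadjusted p under 0.05 in both, with log2 fold changes of -0.97 to -0.67 and -0.93 to -0.65. With the library set as a covariate the log2 fold change was -0.31 (unadjusted p over 0.05) in Sub-fertile and -0.55 (unadjusted p under 0.05) in Infertile heifers. Within the 8-library set it was -0.43 and -0.40 (unadjusted p over 0.05 in both), with 2 libraries against 4. The 10 endothelial markers were all lower in both classes, with medians of -0.53 and -0.50, and summed to 907 to 1659 CPM in High-fertile, 713 to 1128 in Sub-fertile and 706 to 1080 in Infertile heifers. Of the 10 smooth muscle markers all were lower in Sub-fertile heifers, with a median of -1.06, and 4 in Infertile heifers, with a median of 0.07. None of the 10 was at an unadjusted p under 0.05 (edgeR) in either comparison. Their sums overlapped, at 1031 to 12915 CPM in High-fertile, 738 to 6523 in Sub-fertile and 645 to 26525 in Infertile heifers. Of the 10 stromal markers 9 were lower in Sub-fertile and 7 in Infertile heifers, with medians of -0.18 and -0.15. Of these 3 lists only the stromal one was tested for correlation with LAMB2. Its r was 0.559 over 15 heifers (permutation p = 0.0306, adjusted p = 0.0781). Within the 8-library set r was 0.813 (exact permutation p = 0.0116, adjusted p = 0.0533), so neither passed. The part of any of these 3 lists in the LAMB2 difference was not tested. A further entry of the table described as laminin subunit beta-2 (LOC530599), outside the rule for members, was at 0.29 to 1.37 FPKM against 15.8 to 67.6 FPKM for LAMB2. With the counts of both entries summed, the log2 fold changes were -0.78 and -0.81.

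LAMB1, the most abundant beta chain and the one of most laminins, was at 403, 421, 475, 393 and 437 CPM in High-fertile, 506, 501, 260.1, 359 and 416 in Sub-fertile and 427, 645, 304, 368 and 268 in Infertile heifers. The classes overlapped throughout, and the log2 fold changes from High-fertile were -0.06 ± 0.225 (SE) in Sub-fertile and -0.08 ± 0.225 (SE) in Infertile heifers. In each library LAMB1 exceeded LAMB2 per length, by 1.17 to 4.47 times in FPKM. LAMB3, the beta chain of the laminin that anchors epithelium to its base, was at 23.5, 18.5, 16.0, 11.7 and 22.6 CPM in High-fertile, 5.25, 13.6, 17.5, 16.6 and 5.94 in Sub-fertile and 14.8, 29.2, 6.28, 18.9 and 12.03 in Infertile heifers. Its lowest values, 5.25, 5.94 and 6.28 CPM, were in 3 libraries of the 5-library set, and its log2 fold changes were -0.65 ± 0.403 (SE) and -0.18 ± 0.401 (SE).

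Among the alpha chains LAMA2, the chain of laminin around muscle and in stroma, had the highest mean FPKM, and its FPKM was 1.62 to 17.8 times that of LAMA5 across libraries. In Infertile replicate 2 LAMA4 was above it, at 19.7 against 16.8 FPKM. LAMA2 was at 211, 186, 351, 180.2 and 256 CPM in High-fertile, 358, 259.6, 176, 227 and 291 in Sub-fertile and 115, 77.0, 197, 249 and 254 in Infertile heifers. The lowest values, 77.0 and 115 CPM, came from Infertile replicates 2 and 1, and the other 13 libraries held 176 to 358 CPM. Its log2 fold change was -0.41 ± 0.307 (SE; edgeR adjusted p = 0.578) in Infertile and 0.15 ± 0.307 (SE) in Sub-fertile heifers, and -0.71 (unadjusted p under 0.05) in Infertile heifers with the set as a covariate. The table splits LAMA2 over its own entry and 3 entries described as laminin alpha-2-like, and LAMA4 over 3 entries, so these levels belong to the entry with the gene's symbol. Summed over their entries, LAMA2 had log2 fold changes of 0.12 and -0.47 and LAMA4 of 0.11 and 0.02 from High-fertile.

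LAMA5, the alpha chain widespread in adult epithelial and vascular basement membranes, was at 156, 153, 139, 101 and 160.3 CPM in High-fertile, 48.4, 68.0, 124, 167 and 63.5 in Sub-fertile and 165, 114, 57.6, 126 and 49.6 in Infertile heifers. Its 5 lowest values were those of the 5-library set, and the lowest outside it was 101 CPM. LAMA5 thus divided the Sub-fertile and the Infertile heifers among themselves, with log2 fold changes from High-fertile of -0.59 ± 0.361 (SE; edgeR adjusted p = 0.405) and -0.47 ± 0.360 (SE; edgeR adjusted p = 0.584). With the set as a covariate they were 0.04 (unadjusted p over 0.05) and -0.08 (unadjusted p over 0.05). LAMA4, a chain of vessel and stromal laminin, ranged over 18.1 to 49.0 CPM and LAMA3, the alpha chain of the epithelial anchoring laminin, over 14.7 to 62.3 CPM, with log2 fold changes of 0.00 and -0.03 in Sub-fertile and -0.02 and -0.12 in Infertile heifers. LAMA1, the chain best known from the embryo and from a few adult epithelia, was at 2.23, 5.73, 5.75, 0.915 and 3.82 CPM in High-fertile, 4.44, 2.99, 2.37, 5.62 and 2.21 in Sub-fertile and 1.30, 50.3, 2.22, 3.85 and 2.81 in Infertile heifers. Infertile replicate 2 held 50.3 CPM and every other library at most 5.75 CPM. The log2 fold change was 1.71 ± 0.878 (SE; edgeR adjusted p = 0.471) in Infertile against High-fertile heifers, and without Infertile replicate 2 it was -0.54.

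LAMC1, the gamma chain of most laminins, varied little, at 365, 379, 425, 319.8 and 475 CPM in High-fertile, 507, 405, 247, 371 and 394 in Sub-fertile and 368, 374, 341, 383 and 294 in Infertile heifers. Its log2 fold changes were -0.03 ± 0.167 (SE) and -0.16 ± 0.167 (SE) from High-fertile. LAMC3, a gamma chain with a narrower distribution in adult tissue, followed with FPKM below that of LAMC1 in 14 of 15 libraries. LAMC3 was at 235, 135, 329.9, 198 and 316 CPM in High-fertile, 99.99, 87.0, 226, 239.6 and 109 in Sub-fertile and 98.8, 159, 77.0, 286 and 73.7 in Infertile heifers. Values of 135 CPM or more were found in all High-fertile, 2 Sub-fertile and 2 Infertile libraries, and the log2 fold changes were -0.67 ± 0.408 (SE; edgeR adjusted p = 0.405) and -0.81 ± 0.409 (SE; edgeR adjusted p = 0.466).

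Of the laminin receptor subunits, ITGA6 and ITGB4, which together form the receptor of hemidesmosomes at the base of epithelium, were the most abundant. ITGA6 was at 377, 414, 329.7, 418 and 395 CPM in High-fertile, 329, 496, 618, 543 and 672 in Sub-fertile and 457, 268, 705, 509 and 688 in Infertile heifers. Of the Sub-fertile and the Infertile libraries, 4 of 5 each lay above the highest High-fertile library, and Sub-fertile replicate 1 and Infertile replicate 2 lay below the lowest. The log2 fold changes were 0.46 ± 0.236 (SE; edgeR adjusted p = 0.366) and 0.44 ± 0.236 (SE; edgeR adjusted p = 0.480). ITGB4 was at 389, 470.5, 446, 466 and 401 CPM in High-fertile, 135, 288, 626, 602 and 280.1 in Sub-fertile and 479.5, 84.0, 354, 492 and 316 in Infertile heifers. The High-fertile libraries lay within 389 to 470.5 CPM, whereas the others spread from 84.0 CPM in Infertile replicate 2 to 626 CPM in Sub-fertile replicate 3. Its log2 fold changes were -0.17 ± 0.424 (SE) and -0.33 ± 0.424 (SE). Within the 8-library set, 2 Sub-fertile libraries held more of both than 4 High-fertile ones, at 543 to 618 against 330 to 418 CPM of ITGA6 and 602 to 626 against 401 to 470.5 CPM of ITGB4. Those differences were 0.56 and 0.45 on the log2 scale (edgeR adjusted p = 0.649 for both, unadjusted p under 0.05). The same Sub-fertile libraries had epithelial markers summing to 1856 and 1864 CPM, against 1122 to 1472 CPM in those High-fertile ones. Over all 15 heifers the epithelial list had r = 0.636 with ITGB4 (permutation p = 0.0184, adjusted p = 0.0529). With ITGA6 it had r = 0.430 (permutation p = 0.1075, adjusted p = 0.206), and neither pair passed. Over the 8 libraries r was 0.906 with ITGB4 (exact permutation p = 0.00127, adjusted p = 0.0137). With ITGA6 it was 0.761 (exact permutation p = 0.0294, adjusted p = 0.0846). The part of the epithelial list in these differences was not tested.

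ITGA3, an alpha subunit of epithelial laminin receptors, was at 75.5, 78.8, 74.5, 66.4 and 73.6 CPM in High-fertile, 26.8, 37.9, 78.8, 96.0 and 36.9 in Sub-fertile and 51.6, 69.5, 41.0, 69.3 and 56.0 in Infertile heifers. High-fertile libraries lay within 66.4 to 78.8 CPM, while Sub-fertile ones fell in 2 groups, at 26.8 to 37.9 and at 78.8 to 96.0 CPM, according to library set. Log2 fold changes were -0.42 ± 0.289 (SE) and -0.36 ± 0.289 (SE). ITGA7, the laminin receptor subunit of muscle, was at 76.7, 54.6, 52.4, 56.7 and 30.8 CPM in High-fertile, 11.4, 25.6, 38.9, 61.7 and 37.3 in Sub-fertile and 93.8, 29.7, 23.0, 32.0 and 17.8 in Infertile heifers. Infertile replicate 1, the biopsy with the most smooth muscle transcripts, held the highest level, and the log2 fold changes were -0.63 ± 0.461 (SE) and -0.46 ± 0.460 (SE). Without that library the Infertile value was -1.08. In each library ITGA6 exceeded ITGA3 per length by 3.43 to 16.2 times, and ITGB1 exceeded ITGB4 by 1.31 to 13.7 times, the last in Infertile replicate 2.

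Of the 4 alpha subunits of collagen receptors, 2 had lower and 2 higher Sub-fertile than High-fertile means. ITGA1, a subunit of stromal and smooth muscle cells, was the most abundant of them at 118 to 177, 96.0 to 192 and 109 to 165 CPM in High-fertile, Sub-fertile and Infertile heifers, with log2 fold changes of 0.08 ± 0.182 (SE) and -0.16 ± 0.182 (SE). ITGA10, best known from cartilage, was at 38.1, 35.6, 42.6, 20.1 and 33.9 CPM in High-fertile, 21.3, 31.0, 20.3, 25.2 and 21.2 in Sub-fertile and 25.3, 16.7, 20.0, 30.6 and 26.6 in Infertile heifers. Of the High-fertile libraries, 4 of 5 lay above all 10 others, and High-fertile replicate 4, at 20.1 CPM, lay among the lowest. The log2 fold changes were -0.52 ± 0.208 (SE; edgeR adjusted p = 0.360) and -0.52 ± 0.208 (SE; edgeR adjusted p = 0.439). With the set as a covariate they were -0.56 (unadjusted p over 0.05) and -0.53 (unadjusted p under 0.05). ITGA2, a collagen and laminin receptor subunit of epithelium and platelets, was the 1 member at an unadjusted p under 0.05 with a higher level in Sub-fertile heifers. ITGA2 was at 35.2, 54.1, 52.2, 57.7 and 42.3 CPM in High-fertile, 46.6, 70.8, 69.1, 70.6 and 86.8 in Sub-fertile and 56.6, 27.6, 72.9, 52.6 and 71.2 in Infertile heifers. In 4 of 5 Sub-fertile libraries the level lay above every High-fertile library, and the log2 fold change was 0.51 ± 0.235 (SE; edgeR adjusted p = 0.360) in Sub-fertile and 0.22 ± 0.235 (SE) in Infertile heifers. With the set as a covariate the Sub-fertile value was 0.24 (unadjusted p over 0.05). ITGA11, the collagen receptor subunit of fibroblasts, ranged over 7.43 to 43.2 CPM, with 43.2 CPM in Infertile replicate 2.

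ITGB5, a partner of ITGAV in vitronectin receptors, was the most abundant of the subunits that bind the RGD motif of fibronectin, vitronectin and osteopontin. ITGB5 was at 188, 154, 186, 173 and 167 CPM in High-fertile, 104, 152, 224, 333 and 114 in Sub-fertile and 96.1, 179.5, 118, 218 and 182 in Infertile heifers. High-fertile heifers lay within 154 to 188 CPM and the other classes spread on both sides of them, with log2 fold changes of 0.10 ± 0.293 (SE) and -0.13 ± 0.293 (SE). ITGAV, the alpha partner of ITGB3, ITGB5, ITGB6 and ITGB8, was at 159.7, 151, 134, 109.9 and 159 CPM in High-fertile, 216, 171, 124, 124 and 147 in Sub-fertile and 121, 181, 165, 125 and 142 in Infertile heifers. Its log2 fold changes, 0.13 ± 0.172 (SE) and 0.04 ± 0.172 (SE), were within their standard errors of 0. ITGB3, a beta subunit long studied as a marker of uterine receptivity, was at 108, 113, 89.5, 75.7 and 74.3 CPM in High-fertile, 54.4, 94.0, 53.8, 84.3 and 86.0 in Sub-fertile and 149, 84.2, 74.6, 48.9 and 62.2 in Infertile heifers. The highest value was that of Infertile replicate 1 and the lowest that of Infertile replicate 4, and the log2 fold changes were -0.30 ± 0.265 (SE) and -0.13 ± 0.265 (SE). ITGB6, an epithelial beta subunit, was at 18.0, 15.4, 15.8, 8.30 and 16.6 CPM in High-fertile, 6.95, 10.03, 19.1, 19.1 and 17.0 in Sub-fertile and 5.43, 6.76, 15.8, 16.8 and 28.0 in Infertile heifers. Its log2 fold changes were -0.04 ± 0.409 (SE) and -0.02 ± 0.409 (SE), and the Infertile libraries alone covered the whole range. In each library ITGB5 exceeded ITGB3 per length by 1.38 to 9.55 times and ITGB6 by 11.8 to 48.1 times. ITGA8, the alpha subunit that binds nephronectin and fibronectin in smooth muscle and stroma, was at 79.5, 62.0, 51.6, 33.0 and 37.3 CPM in High-fertile, 27.4, 72.2, 14.8, 38.8 and 39.8 in Sub-fertile and 127, 71.1, 30.5, 17.9 and 18.8 in Infertile heifers. The log2 fold changes were -0.45 ± 0.526 (SE) and 0.01 ± 0.525 (SE), smaller than their standard errors. ITGB8 ranged over 23.2 to 73.0 CPM and had log2 fold changes of 0.29 and 0.11.

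ITGA5, the alpha subunit of the classical fibronectin receptor, had lower class means outside the High-fertile heifers. ITGA5 was at 127, 94.4, 117, 83.1 and 169 CPM in High-fertile, 67.7, 63.0, 66.9, 114 and 53.3 in Sub-fertile and 99.4, 136, 53.3, 102 and 45.4 in Infertile heifers. Sub-fertile replicate 4, at 114 CPM, was the only Sub-fertile library within the High-fertile range, and the log2 fold change was -0.69 ± 0.298 (SE; edgeR adjusted p = 0.360) in Sub-fertile and -0.44 ± 0.297 (SE) in Infertile heifers. With the set as a covariate these were -0.16 (unadjusted p over 0.05) and -0.23 (unadjusted p over 0.05). ITGA2B, the alpha subunit of the fibrinogen receptor of platelets, was at 19.0, 15.4, 13.03, 16.3 and 18.3 CPM in High-fertile, 10.7, 11.1, 14.9, 13.6 and 10.5 in Sub-fertile and 12.1, 12.3, 9.25, 16.4 and 12.5 in Infertile heifers. The ranges overlapped, and the log2 fold changes were -0.43 ± 0.170 (SE; edgeR adjusted p = 0.360) and -0.39 ± 0.170 (SE; edgeR adjusted p = 0.448). With the set as a covariate they were -0.23 (unadjusted p over 0.05) and -0.26 (unadjusted p over 0.05). Of 10 platelet and red cell markers, 5 were too low to be tested, among them the platelet genes PPBP, GP1BA and GP6 at means of 0.0153, 0.0107 and 0.0127 FPKM. The list summed to 20.4 to 32.0 CPM in High-fertile, 12.04 to 26.1 in Sub-fertile and 11.9 to 28.1 in Infertile libraries. By library set, it summed to 11.9 to 18.5 CPM in the 5-library and 21.1 to 32.0 CPM in the 8-library set, without overlap. ITGA2B was at 9.25 to 12.5 and 12.1 to 18.3 CPM in these sets. The part of the list in the ITGA2B difference was not tested.

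ITGA9, which binds tenascin and osteopontin, led the pair of related subunits ITGA9 and ITGA4 at 11.7 to 33.8 CPM, with log2 fold changes of 0.07 ± 0.231 (SE) and 0.25 ± 0.231 (SE). ITGA4, the alpha subunit that binds VCAM1 and fibronectin, was at 3.96 to 5.94 CPM in High-fertile, 3.62 to 8.28 in Sub-fertile and 4.17 to 10.3 in Infertile libraries. Its log2 fold changes were 0.39 ± 0.267 (SE; edgeR adjusted p = 0.451) and 0.52 ± 0.267 (SE; edgeR adjusted p = 0.467). The means were higher in the Sub-fertile and Infertile than in the High-fertile class, with overlap in each comparison.

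The leukocyte subunits were low, with means of 0.0440 to 4.54 FPKM. ITGAE, which holds lymphocytes to epithelial cadherin, was the most abundant of them and one of the steadiest members, at 14.5 to 19.7, 15.6 to 22.8 and 16.6 to 23.0 CPM in High-fertile, Sub-fertile and Infertile heifers. Its log2 fold changes were 0.16 ± 0.144 (SE) and 0.26 ± 0.144 (SE). ITGB2, the beta subunit shared by ITGAL, ITGAM and ITGAD, was at 12.5, 7.06, 9.33, 8.64 and 7.30 CPM in High-fertile, 4.49, 4.56, 9.49, 4.85 and 5.56 in Sub-fertile and 5.28, 10.1, 5.23, 7.48 and 6.28 in Infertile heifers. Without Sub-fertile replicate 3, at 9.49 CPM, the Sub-fertile libraries lay at 4.49 to 5.56 CPM, below all High-fertile ones. The log2 fold change was -0.63 ± 0.260 (SE; edgeR adjusted p = 0.360) in Sub-fertile and -0.38 ± 0.259 (SE) in Infertile heifers. Under the set covariate these were -0.29 (unadjusted p over 0.05) and -0.25 (unadjusted p over 0.05), and within the 8-library set -0.19 and -0.35. The 10 leukocyte markers were all lower in Sub-fertile than in High-fertile heifers, the median of their log2 fold changes was -0.41, and they summed to 131 to 155 CPM against 157 to 228 CPM without overlap. In Infertile heifers 9 of 10 were lower, and the sum was 113 to 220 CPM. Their part in the ITGB2 difference was not tested. ITGAL, ITGAM and ITGB7 had log2 fold changes of -0.09, -0.46 and -0.68 in Sub-fertile and 0.08, -0.33 and -0.24 in Infertile heifers, none at an unadjusted p under 0.05 in edgeR. The Infertile value of ITGB7 was -0.74 without Infertile replicate 1 and -0.09 without High-fertile replicate 1. ITGAD was near the detection limit, with 0.544 CPM at most and a count of 0 in Sub-fertile replicate 2, which at that depth allows up to 0.0695 CPM (counting error only).

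Infertile and Sub-fertile heifers differed in no member at an unadjusted p under 0.05. The smallest p was that of LAMA1, with a log2 difference of 1.78 ± 0.881 (SE; edgeR adjusted p = 0.998), which was -0.47 without Infertile replicate 2. ITGA11 followed at 0.68 ± 0.364 (SE; edgeR adjusted p = 0.998), and at 0.14 without the same library, then LAMA2 at -0.55 ± 0.307 (SE; edgeR adjusted p = 0.998). LAMB2, ITGA10 and ITGA2B, which had the smallest p in the comparisons with High-fertile heifers, were at -0.03 ± 0.268 (SE), 0.00 ± 0.208 (SE) and 0.04 ± 0.170 (SE) between these 2 classes.

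Between library sets some members passed the adjusted threshold. These sets were formed by clustering the same libraries, on other genes, and were not fixed beforehand. Their p-values are therefore not comparable with those between the labelled classes. With class in the edgeR model, 9 of 36 members passed the adjusted threshold between the 5- and the 8-library set, a smaller share than the 30.7% of all genes that passed. Of all 36 members, 7 passed lower and 2 higher in the 5-library set, beside 17.6% and 13.1% of all genes. LAMA5 was lower at 48.4 to 68.0 against 101 to 167 CPM, with a difference of -1.31 ± 0.162 (edgeR adjusted p = 8.43e-05) on the log2 scale. LAMB2 lay at 91.7 to 169.6 against 179.6 to 382 CPM, a difference of -0.84 ± 0.186 (edgeR adjusted p = 0.00451), and LAMC3 at 73.7 to 109 against 98.8 to 329.9 CPM, a difference of -1.27 ± 0.289 (edgeR adjusted p = 0.00504). LAMB3 differed by -0.995 ± 0.287 (edgeR adjusted p = 0.0193). The receptor subunits ITGA3, ITGA5 and ITGA7 were lower too, with -0.88 ± 0.194 (edgeR adjusted p = 0.00409), -0.81 ± 0.215 (edgeR adjusted p = 0.0124) and -1.18 ± 0.402 (edgeR adjusted p = 0.0421). ITGAV and ITGA4 were higher, by 0.39 ± 0.134 (edgeR adjusted p = 0.0430) and 0.63 ± 0.223 (edgeR adjusted p = 0.0486). Laminin chains made up 4 and integrin subunits 5 of the 9. Of the 9, LAMA5 and LAMB2 did not overlap between these sets. ITGB4, which did not pass (edgeR adjusted p = 0.107), did not overlap either, at 135 to 354 against 401 to 626 CPM. The share of all genes without overlap between the sets was not computed. Endothelial markers summed to 706 to 1014 CPM in the 5-library and 807 to 1659 CPM in the 8-library set, and their part in these differences was not tested. Without class in the model 14 members passed, beside 39.6% of all genes.

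**Figure D3:**
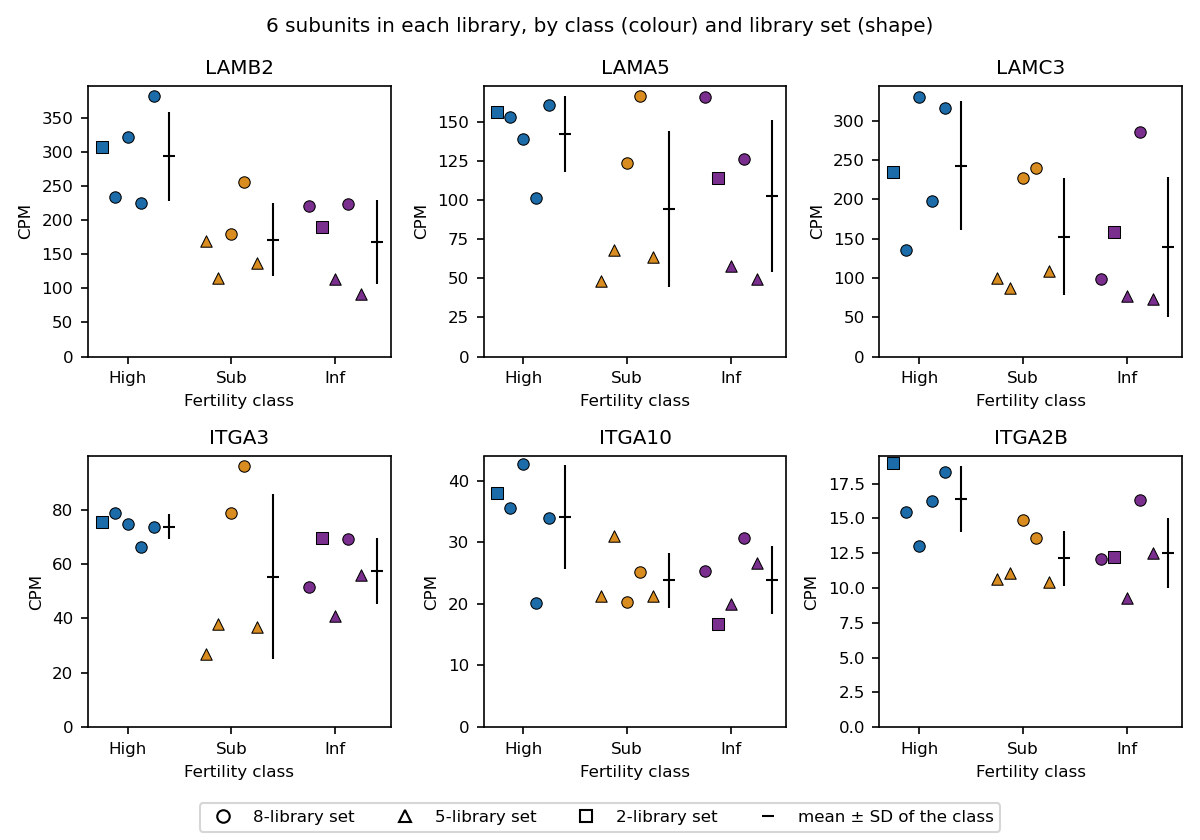
CPM (vertical axis, from 0) of LAMB2, LAMA5, LAMC3, ITGA3, ITGA10 and ITGA2B in each library by fertility class (horizontal axis, colour) and library set (shape), with the class mean and SD beside the points. Triangles of the 5-library set are low in LAMB2, LAMA5, LAMC3 and ITGA3 and mixed with the other points in ITGA10.

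Chains that assemble with one another varied together in some pairs and not in others, over 21 pairs of known partners tested for correlation of log2 CPM across heifers. LAMA4 and LAMB1 had Pearson's r = 0.877 (permutation p = 3.00e-05, adjusted p = 4.20e-04) and Spearman's rho = 0.918 (permutation p = 2.00e-05, adjusted p = 4.20e-04) over 15 heifers. For this pair r was 0.755 without the 2 heifers farthest from the median LAMA4 level and 0.847 within the 8-library set (exact permutation p = 0.00553, adjusted p = 0.0250). LAMA4 and LAMC1 had Pearson's r = 0.832 (permutation p = 1.30e-04, adjusted p = 9.10e-04) and Spearman's rho = 0.732 (permutation p = 0.00290, adjusted p = 0.0152) over 15 heifers. There r was 0.694 without the 2 heifers farthest from the median LAMA4 level and 0.891 within the 8-library set (exact permutation p = 0.00208, adjusted p = 0.0219). The vessel and stromal chains LAMA4, LAMB1 and LAMC1 thus tended to vary together, most plainly in Sub-fertile replicate 3, which was low in all 3. Infertile replicate 2 had the highest LAMA4 and LAMB1, but its LAMC1, at 374 CPM, was the median of the 15 heifers. The third pair of these chains, LAMB1 and LAMC1, had Pearson's r = 0.728 (permutation p = 0.00268, adjusted p = 0.00938) and Spearman's rho = 0.761 (permutation p = 0.00161, adjusted p = 0.0113) over 15 heifers. It did not pass the adjusted threshold without Infertile replicate 5 and Sub-fertile replicate 3, where r was 0.447 without the 2 heifers farthest from the median LAMB1 level and 0.857 within the 8-library set (exact permutation p = 0.0133, adjusted p = 0.0398). LAMA3 and LAMB3, chains of the epithelial anchoring laminin, did not pass, with r = 0.0321 (permutation p = 0.909, adjusted p = 0.982). LAMA5 fell in 2 separate groups of libraries, so its relation to LAMB2 is given within the 8-library set alone, where r was 0.409 (exact permutation p = 0.318, adjusted p = 0.392).

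Among integrin partners, ITGA1 and ITGB1 had Pearson's r = 0.746 (permutation p = 0.00115, adjusted p = 0.00483) and Spearman's rho = 0.654 (permutation p = 0.0101, adjusted p = 0.0302) over 15 heifers. The pair did not pass without Sub-fertile replicates 3 and 5, where r was 0.530 without the 2 heifers farthest from the median ITGA1 level and 0.824 within the 8-library set (exact permutation p = 0.00843, adjusted p = 0.0295). ITGAM and ITGB2 had Pearson's r = 0.793 (permutation p = 4.60e-04, adjusted p = 0.00242) and Spearman's rho = 0.682 (permutation p = 0.00602, adjusted p = 0.0253) over 15 heifers. In that pair r was 0.754 without the 2 heifers farthest from the median ITGAM level and 0.754 within the 8-library set (exact permutation p = 0.0350, adjusted p = 0.0918). ITGAL and ITGB2 had Pearson's r = 0.630 (permutation p = 0.0112, adjusted p = 0.0336) and Spearman's rho = 0.621 (permutation p = 0.0151, adjusted p = 0.0396) over 15 heifers. The adjusted threshold was missed without Infertile replicate 1 and Sub-fertile replicate 4, where r was 0.561 without the 2 heifers farthest from the median ITGAL level and 0.892 within the 8-library set (exact permutation p = 0.00352, adjusted p = 0.0246). ITGA4 and ITGB7 went in opposite directions, with Pearson's r = -0.608 (permutation p = 0.0158, adjusted p = 0.0416) and Spearman's rho = -0.671 (permutation p = 0.00781, adjusted p = 0.0273) over 15 heifers. Here r was -0.655 without the 2 heifers farthest from the median ITGA4 level and -0.472 within the 8-library set (exact permutation p = 0.241, adjusted p = 0.392), and neither passed the adjusted threshold. ITGA6 and ITGB4 missed the threshold over all heifers, with r = 0.474 (permutation p = 0.0730, adjusted p = 0.153), and reached 0.859 within the 8-library set (exact permutation p = 0.00595, adjusted p = 0.0250). ITGAV was not related to ITGB3, ITGB5, ITGB6 or ITGB8 past the threshold, with r = -0.0821, -0.416, -0.216 and 0.124 (adjusted permutation p of 0.236 to 0.951). In all, 8 of the 21 pairs passed an adjusted p of 0.05, LAMA5 with LAMB2 among them, and 7 of the 8 were positive.

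**Figure D4:**
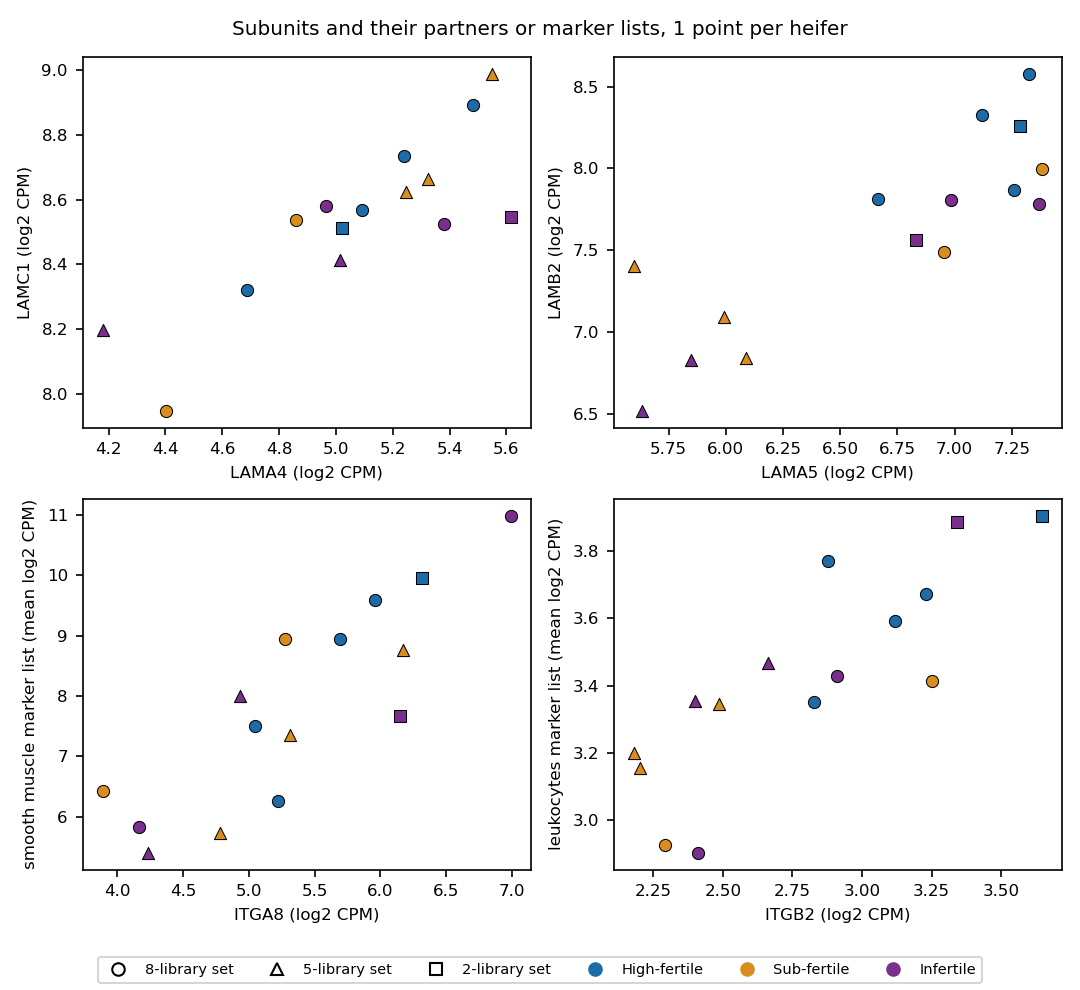
Log2 CPM of LAMC1 against LAMA4 and of LAMB2 against LAMA5 (top), and the mean log2 CPM of the smooth muscle list against ITGA8 and of the leukocyte list against ITGB2 (bottom), with 1 point per heifer, colour for class and shape for library set. In the LAMA5 panel the 5 triangles of the 5-library set form a separate low group, and in the other 3 panels the points rise together.

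Several subunits were correlated with the marker list chosen for them, over 23 pairs of a member and a marker list. The subunits that passed were each tried with 1 list, so their relation to the other cell types was not tested. ITGA8 and the smooth muscle list had Pearson's r = 0.856 (permutation p = 7.00e-05, adjusted p = 8.05e-04) and Spearman's rho = 0.818 (permutation p = 4.30e-04, adjusted p = 0.00247) over 15 heifers. For ITGA8 r was 0.815 without the 2 heifers farthest from the median ITGA8 level and 0.900 within the 8-library set (exact permutation p = 0.00146, adjusted p = 0.0137). ITGA7 and the same list had Pearson's r = 0.771 (permutation p = 9.00e-04, adjusted p = 0.00414) and Spearman's rho = 0.714 (permutation p = 0.00382, adjusted p = 0.0176) over 15 heifers, and r was 0.656 without the 2 heifers farthest from the median ITGA7 level and 0.925 within the 8-library set (exact permutation p = 0.00179, adjusted p = 0.0137). Without those 2, Infertile replicate 1 and Sub-fertile replicate 1, ITGA7 no longer passed. ITGAM and the leukocyte list had Pearson's r = 0.868 (permutation p = 2.00e-05, adjusted p = 4.60e-04) and Spearman's rho = 0.868 (permutation p = 8.00e-05, adjusted p = 0.00176) over 15 heifers. Here r was 0.804 without the 2 heifers farthest from the median ITGAM level and 0.831 within the 8-library set (exact permutation p = 0.0108, adjusted p = 0.0533). ITGB2 and the leukocyte list had Pearson's r = 0.833 (permutation p = 1.20e-04, adjusted p = 8.62e-04) and Spearman's rho = 0.836 (permutation p = 1.80e-04, adjusted p = 0.00176) over 15 heifers. For ITGB2 r was 0.790 without the 2 heifers farthest from the median ITGB2 level and 0.824 within the 8-library set (exact permutation p = 0.0178, adjusted p = 0.0586). ITGA11 and the stromal list had Pearson's r = 0.816 (permutation p = 1.50e-04, adjusted p = 8.62e-04) and Spearman's rho = 0.825 (permutation p = 2.30e-04, adjusted p = 0.00176) over 15 heifers. For this pair r was 0.685 without the 2 heifers farthest from the median ITGA11 level and 0.730 within the 8-library set (exact permutation p = 0.0374, adjusted p = 0.0957). ITGAL with leukocyte and ITGB6 with epithelial markers also passed (r = 0.729 and 0.613; adjusted permutation p = 0.00870 and 0.0436), though the first had r = 0.463 without Infertile replicate 1 and Sub-fertile replicate 4. The other 16 pairs did not pass, among them ITGB7 and the leukocyte list (r = -0.0557, permutation p = 0.846, adjusted p = 0.885) and ITGB3 and the endothelial list (r = 0.136, permutation p = 0.632, adjusted p = 0.727). LAMA4 and LAMC1 did not pass with the endothelial list either, at r = 0.161 and 0.198 (adjusted permutation p = 0.685 and 0.614). The points of each pair share a library and its depth.

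Genes that work with integrins and laminins did not pass the adjusted threshold between classes either. Of 24 tested ligands and basement membrane partners, 18 were lower in Sub-fertile than in High-fertile heifers, 5 of them at an unadjusted p under 0.05 and none higher at it, beside 49% of all genes lower and 7.14% lower at that p. The list's median log2 fold change was -0.45. COL18A1, the basement membrane collagen that gives rise to endostatin, was at 213 to 600.5 CPM in Sub-fertile and 638 to 1197 CPM in High-fertile libraries without overlap, with a log2 difference of -1.26 ± 0.387 (SE; edgeR adjusted p = 0.360). In Infertile libraries it was at 155 to 597 CPM, also without overlap, with -1.06 ± 0.385 (SE; edgeR adjusted p = 0.435). With the set as a covariate these became -0.60 and -0.68, both at an unadjusted p under 0.05. MFGE8, a secreted ligand of ITGAV receptors, had -0.67 ± 0.254 in Sub-fertile heifers (SE; edgeR adjusted p = 0.360), and -0.18 with the set as a covariate (unadjusted p over 0.05). In Infertile heifers 17 of 24 were lower, 1 of them at an unadjusted p under 0.05 and 1 gene higher at it, beside 46.5% of all genes lower and 3.89% lower at that p. That gene was SPP1, osteopontin, with a log2 difference of 2.15 ± 0.978 (SE; edgeR adjusted p = 0.450), and 65.0 CPM in Infertile replicate 2 against at most 11.8 CPM in High-fertile libraries. Without Infertile replicate 2 it was 1.17.

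Of 12 other laminin receptors and tetraspanins, 10 were lower in Sub-fertile and 8 in Infertile than in High-fertile heifers, beside 49% and 46.5% of all genes. CD151, the tetraspanin that binds laminin receptor integrins, was at 121 to 206 CPM in Sub-fertile and 222 to 286 CPM in High-fertile libraries without overlap, with a log2 difference of -0.75 ± 0.245 (SE; edgeR adjusted p = 0.360). In Infertile libraries it was at 86.3 to 233 CPM, with -0.59 ± 0.244 (SE; edgeR adjusted p = 0.439), and with the set as a covariate the values were -0.27 and -0.35. CD47, an integrin-associated protein, was the 1 gene of this list higher in Sub-fertile heifers at an unadjusted p under 0.05, at 0.33 ± 0.151 (SE; edgeR adjusted p = 0.360), and BCAM, a LAMA5 receptor, had -0.72 ± 0.365 in Infertile heifers (SE; edgeR adjusted p = 0.466). Of 33 adaptor and signalling genes, 27 were lower in Sub-fertile heifers, 4 of them at an unadjusted p under 0.05, with a median of -0.37, beside 49% of all genes lower and 7.14% lower at that p. The smallest p were those of ACTN4, an actin cross-linker, at -0.48 ± 0.213 and PXN, the focal adhesion scaffold paxillin, at -0.62 ± 0.285 (SE; edgeR adjusted p = 0.360 for both). Under the set covariate the Sub-fertile values were 0.06 for CD47, -0.15 for ACTN4 and -0.11 for PXN, all at an unadjusted p over 0.05. In Infertile heifers 22 of 33 were lower, beside 46.5% of all genes, led by PTK2B, a kinase related to focal adhesion kinase, at -0.50 ± 0.226 and KANK2, a talin-binding protein, at -0.47 ± 0.211 (SE; edgeR adjusted p = 0.450 for both). With the covariate these were -0.33 and -0.34, both at an unadjusted p over 0.05. Infertile and Sub-fertile heifers differed in these 3 lists at an unadjusted p under 0.05 in SPP1 (2.79 ± 1.004) and KANK1 (0.37 ± 0.167) among the genes named by rule (SE; edgeR adjusted p = 0.998 for both). Without Infertile replicate 2 these were 1.80 and 0.23. TNC, a ligand of ITGA9, had a log2 difference of 1.69 ± 0.817 (SE) in that comparison, with Infertile libraries at 9.76 to 713 CPM and Sub-fertile ones at 33.6 to 101 CPM, and it was 0.03 without Infertile replicate 2. FLNA, an actin cross-linker, had 1.04 ± 0.763 (SE), with 355 to 8029 CPM against 509 to 2242 CPM, and turned to -0.36 without Infertile replicate 1. CD44 had 0.57 ± 0.372 and RPSA 0.25 ± 0.153 (SE), which were 0.25 without Infertile replicate 1 and 0.12 without Infertile replicate 2.

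Between the 5- and the 8-library set, 7 of the 24 ligands and partners (all lower), 5 of the 12 other receptors (4 lower) and 10 of the 33 adaptors (7 lower) passed the adjusted threshold, beside 30.7% of all genes. Of all genes, 17.6% passed lower and 13.1% higher. PXN, COL18A1, CD151 and BCAM had log2 fold changes of -1.05, -1.36, -0.82 and -1.26 (edgeR adjusted p = 1.18e-05, 0.000402, 0.000764 and 0.000427). CD47 was higher in the 5-library set, by 0.45 (edgeR adjusted p = 0.00251).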

How the data were processed

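RNA of 15 endometrial biopsies was measured by stranded mRNA sequencing of polyA RNA, per the labels' protocols. The authors deposited 1 table of raw read counts per gene and, beside them, FPKM values, which the authors computed from reads scaled to gene length and library size, per the file headers. The submitters' processing notes name FastQC, Subread, featureCounts, edgeR and the genome build UMD3.1, with versions not given in the sources used here. All 36 symbols matched the RefSeq annotation ARS-UCD2.0, used for names only. ITGAX and LAMB4 were not analysed here.

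Counts were tested with edgeR 4.0.16 (quasi-likelihood, robust, TMM, filterByExpr by class) in R 4.3.3, with 1 mean per class over all 15 libraries (12 residual degrees of freedom) and Benjamini-Hochberg adjustment over 19962 genes at 0.05. SE is the log2 fold change over the square root of F. The edgeR fit was tested on simulated counts with 200 changed genes, for Sub-fertile against High-fertile. It recovered 84% of log2 changes of 2 and 39% of log2 changes of 1 in size. Of unchanged genes it called 0.0255%. The correlation statistic was checked against scipy on random values, and the other steps were not simulated. Library sets came from average-linkage clustering on 372 pseudogenes and ribosomal RNA genes, without class. Correlations of log2 CPM (prior count of 2) used 100000 two-sided permutations, or all 40320 orders within the 8-library set, with adjustment over 21 partner and 23 marker pairs (Python 3.11.15, numpy 2.4.6, scipy 1.17.1, pandas 2.3.3; figures with matplotlib 3.10.9). Alternatives were other scalings and filters, DESeq2 1.42.0, limma-voom (limma 3.58.1), the sets as a covariate, the largest set alone, and leaving out each library; the settings of the set comparison and the summing of split entries were added after seeing the data. Replicate numbers only name the heifers and link none between classes, so nothing was paired.

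The members, role lists, 3 pathway lists and 6 marker lists were chosen with earlier results of these data known. Genes are described in full where an unadjusted p was under 0.05, where 2 classes did not overlap, where a gene led its role list by mean FPKM, and for ITGAV, ITGB1, ITGB3, ITGB5, ITGB6, ITGA8, LAMA5, LAMB3 and LAMC1. The values of 1 member are not reported here, though it is included in the counts over all 36. Of each pathway list, the 2 genes with the smallest p in each comparison are named. Other members are given by range or count, and those given in more detail, with PPBP, GP1BA, GP6 and LOC530599, were chosen after their values were seen.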

Additional observations from a re-analysis of the deposited data

Results flagged for a closer look

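In 8 of 105 groups of 5 heifers (35 genes in 3 classes), 1 heifer lay far from the other 4, by a gap of more than 0.710 of the group's range. Chance alone gives about 5% of groups, or 5.2 of these. Infertile replicate 2 held 50.3 CPM of LAMA1, with 1.30 to 3.85 CPM in the other Infertile heifers. Infertile replicate 1 held 93.8 CPM of ITGA7, with 17.8 to 32.0 CPM in the others, and 25.5 CPM of ITGB7, with 7.53 to 9.59 CPM. Sub-fertile replicate 3 held 9.49 CPM of ITGB2 (4.49 to 5.56 CPM in the others) and 43.1 CPM of ITGB8 (51.7 to 53.7 CPM). Sub-fertile replicate 4 held 114 CPM of ITGA5, with 53.3 to 67.7 CPM in the others. High-fertile replicate 4 held 8.30 CPM of ITGB6, with 15.4 to 18.0 CPM in the others. High-fertile replicate 1 held 0.544 CPM of ITGAD, with 0.0203 to 0.159 CPM in the others, all near the detection limit.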

How the results depend on the processing

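The count of members at an unadjusted p under 0.05 in Sub-fertile against High-fertile heifers was 6. It was 0 with the library set as a covariate and 1 to 8 with 1 library left out (1 when High-fertile replicate 1 or else Sub-fertile replicate 5 was left out, 3 when High-fertile replicate 3 or else Sub-fertile replicate 2 was). In the largest set alone ITGA2, ITGA6, ITGA11, ITGB4 and LAMB1 were at that level, and of the 6 only ITGA2 was among them. In Infertile against High-fertile heifers the count was 3, with 0 in the largest set alone and 1 to 7 with 1 library left out (1 without High-fertile replicate 1, 7, 6 and 5 without Infertile replicates 1, 2 and 4). Between Infertile and Sub-fertile heifers it was 0, with 4 in the largest set alone and 0 to 3 with 1 library left out (3 without Infertile replicate 5). For any difference it was 3, with 1 under the covariate, 5 in the largest set alone and 1 to 8 with 1 library left out (6 and 8 without Infertile replicates 1 and 2). No member passed the adjusted threshold between classes under DESeq2 or limma-voom. Over all genes edgeR called 0 in each comparison, DESeq2 19, 34, 11 and 34 (Sub-fertile and Infertile against High-fertile, Infertile against Sub-fertile, any difference) and limma-voom 0, 1, 1 and 1. Without the 2-library set edgeR called 3 genes in Sub-fertile against High-fertile heifers, and 0 to 3 with 1 library left out. The members' median log2 fold change there ran from -0.27 (without Sub-fertile replicate 4) to -0.041 (without High-fertile replicate 3). Between library sets 9 members passed, and 14 without class in the model. Of partner pairs, 8 passed, and 4 without the 2 heifers farthest from the median; of marker pairs, 7 passed, and 3 in the largest set alone. Sample size was smaller in these last settings; elsewhere the cause was not tested. No member turned direction with 1 library left out in a comparison where its unadjusted p was under 0.05. Others did: over the 3 comparisons 13, 13 and 24 of 36 members turned, among them LAMA1 as given above and ITGAD in Sub-fertile against High-fertile heifers (-0.69, and 0.10 without High-fertile replicate 1). LAMA5 in Sub-fertile heifers turned to 0.04 with the covariate. Of the comparison-level values 371 stayed near the main value and 41 did not. They include the counts of members and of all genes past the adjusted threshold between classes, which were 0 in the main fit. Another 0 was counted as near, and most settings were fits with 1 library left out. The 371 are therefore not separate checks. Near meant within 1.5 times for counts. For medians it meant within 0.152 on the log2 scale, the SD between heifers of the members' median level, whatever the sign. Of the values for single genes or pairs 437 kept their side of the adjusted threshold, 14 fell short of it and 5 passed it. No single gene was past it in the main fit. For pairs that had not passed, a change of sign was not counted.

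Limits: 5 heifers per class leave SEs of 0.144 to 0.878 on the log2 scale for the 36 genes against High-fertile. No paired analysis was possible because each library is labelled as 1 animal and replicate numbers only name the heifers. Over the scalings tried, 21 to 23 members were lower in Sub-fertile and 20 to 24 in Infertile than in High-fertile heifers, and the median of all genes stayed at or below 0.0695. The 5-library set lacks the High-fertile class, and there class and set cannot be told apart.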

Other observations

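Infertile replicate 2 had the highest level of any heifer in several laminin chains, with 50.3 CPM of LAMA1, 645 CPM of LAMB1, 62.3 CPM of LAMA3, 29.2 CPM of LAMB3 and 49.0 CPM of LAMA4. It also had the highest levels of ITGA11 (43.2 CPM) and ITGA9 (33.8 CPM). The same heifer had the lowest levels of LAMA2 (77.0 CPM), ITGB4 (84.0 CPM), ITGA6 (268 CPM), ITGA2 (27.6 CPM) and ITGA10 (16.7 CPM). Its ligands SPP1 and TNC were at 65.0 and 713 CPM. ITGBL1, an integrin-like secreted protein outside the rule for members, was at 0.17 FPKM there and at up to 17.6 FPKM elsewhere. Infertile replicate 1 had the highest levels of ITGA7 (93.8 CPM), ITGA8 (127 CPM), ITGB3 (149 CPM) and ITGB7 (25.5 CPM), with the most smooth muscle transcripts. These 2 heifers were singled out after their values were seen.

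Entries of the table that carry the name of a laminin chain but not its plain symbol were described after the data were seen. The table has LAMA4 under 3 entries of 2528, 1241 and 2533 bases, the last 2 at 11.1 to 29.7 and 16.9 to 51.3 FPKM. LAMA2, with 4654 bases, stands beside 3 entries described as laminin alpha-2-like, of 2508, 2327 and 795 bases. In Infertile against High-fertile heifers their log2 fold changes were -0.59, -0.64 and -0.72 (the last at an unadjusted edgeR p under 0.05), beside -0.41 for LAMA2. The entry described as laminin subunit beta-2, LOC530599, had log2 fold changes of -0.96 and -1.22 in Sub-fertile and Infertile against High-fertile heifers (edgeR adjusted p = 0.360 in the first, both unadjusted p under 0.05).

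Marker lists of the biopsy's cell types were also counted by genes lower than in High-fertile heifers. Of all genes, 49% were lower in Sub-fertile and 46.5% in Infertile heifers. Of 10 genes each, 10 smooth muscle, 9 stromal and 6 epithelial markers were lower in Sub-fertile heifers, with median log2 fold changes of -1.06, -0.18 and -0.06. In Infertile heifers 4, 7 and 4 were lower, with medians of 0.07, -0.15 and 0.15. No smooth muscle or epithelial marker was at an unadjusted p under 0.05 (edgeR) in either comparison. Of the stromal markers 1 was, in Sub-fertile heifers, beside 13.7% of all genes. Of the 5 tested platelet and red cell markers 3 were lower in Sub-fertile and 2 in Infertile heifers.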
